A study of Mus musculus with 6 samples.

Results

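The small (40S) subunit of the cytosolic ribosome holds the 18S rRNA and a set of small basic proteins, and the mRNA of 29 of these protein genes was examined in the tibialis anterior (TA) muscle of aged mice. The 29 genes were chosen by name, with earlier results of these data known. All 29 were found by Ensembl identifier among the 55416 genes counted in the study. Muscle came from 3 WT mice and 3 SELENOW KO mice, all labelled as naturally aged to 24 months, and the methods of the study give male mice of a C57BL/6N background for both genotypes. The KO line lacks exon 4 of Selenow, a small selenoprotein gene, in the whole body after CRISPR editing with a pair of guide RNAs. The sample labels name no other allele and no drug for either group. RNA sequencing was performed on total RNA of whole TA muscle, so a smaller number of cells of some type and less RNA per cell cannot be told apart in any of the values.

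The 40S subunit binds the mRNA and the initiator tRNA, scans to the start codon and checks the pairing of codon and anticodon, after which it joins the large (60S) subunit that forms the peptide bond. Its proteins are assembled in equal numbers with the rRNA, and surplus copies are degraded. In skeletal muscle the supply of ribosomes is among the factors that set how much protein can be made. The mRNAs of ribosomal proteins often begin with a C followed by a run of pyrimidines, the terminal oligopyrimidine (TOP) start through which mTORC1 signalling controls their translation. Mouse genes for these proteins also have many processed pseudogenes, whose reads can be hard to separate from those of the parent.

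All 29 genes had a lower mean in KO muscle, and 9 of them were lower past the thresholds for differentially expressed genes (DEGs) that the study used, that is, p under 0.05 before adjustment together with a fold change under 0.7. These 9 genes were Rps27, Rps29, Rps28, Rps27a, Rps21, Rps19, Rps13, Rps20 and Rps16, and no gene of the 29 was higher past the thresholds. Of all 15623 genes tested, 3.14% passed in the lower direction and 2.21% in the higher direction (fold change over 1.5). The median log2 fold change of KO against WT was -0.42 over the 29 genes, with a range from -1.17 to -0.04, and -0.004 over all genes tested. In 22 of the 29 genes the highest KO library stayed below the lowest WT library, against 7.87% of all genes, and 23 were lower at an unadjusted p under 0.05, against 5.16% of all genes. After Benjamini-Hochberg adjustment of edgeR's quasi-likelihood test, the p of no gene in the table was under 0.05 in this fit (0% of all tested), and the smallest among the 29 was 0.0588. With DESeq2 on the same genes, 7 of the 29 had an adjusted p under 0.05 and were lower in KO (Rps29, Rps27, Rps28, Rps27a, Rps21, Rps13 and Rps4x), against 0.166% of all genes.

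To show how transcripts with larger and smaller differences begin, the bases around an annotated start are given for 7 genes with a TOP start and 3 without it. Of these 3, Rps28 and Rps13 passed the thresholds and Rps24 did not. Each window runs from 10 bases before the start to 20 bases from the start onward, 5′ to 3′ on the gene's strand in RefSeq's annotation of GRCm38.p6. Capitals mark the TOP tract, a C at the start base followed by at least 4 of C or T without a break, and a window with no capitals has none at that base.
Rps27 (chr3:90213629-90213658, minus strand): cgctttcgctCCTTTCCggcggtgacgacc
Rps21 (chr2:180257369-180257398, plus strand): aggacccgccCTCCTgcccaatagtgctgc
Rps15a (chr7:118116128-118116157, minus strand): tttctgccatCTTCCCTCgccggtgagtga
Rps10 (chr17:27635225-27635254, minus strand): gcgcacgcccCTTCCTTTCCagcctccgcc
Rps18 (chr17:33955646-33955675, minus strand): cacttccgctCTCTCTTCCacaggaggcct
Fau (chr19:6057937-6057966, plus strand): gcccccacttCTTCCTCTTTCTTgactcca
Rps6 (chr4:86857348-86857377, minus strand): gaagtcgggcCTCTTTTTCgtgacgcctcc
Rps28 (chr17:33824543-33824572, minus strand): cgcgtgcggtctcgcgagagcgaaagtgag
Rps13 (chr7:116334171-116334200, minus strand): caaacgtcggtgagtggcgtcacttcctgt
Rps24 (chr14:24490668-24490697, plus strand): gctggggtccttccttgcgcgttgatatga

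RefSeq's promoter table held 25 of the 29 genes, with no entry for Rps14, Rps20, Rps27a and Rps29. A TOP start stood at an annotated start in 7 of the 25 genes (28%), and in 3.01% of all 27025 genes in the table. Counted by promoter, these were 7 of 30 promoters of the set and 2.51% of all 32851. A gene was counted where any of its annotated starts had the tract. Rps21 has 2 annotated starts, and only the one printed above has a tract, of 5 bases, the shortest allowed. The 7 genes with it had a median log2 fold change of -0.43, and 2 of them (Rps27 and Rps21) were lower past the DEG thresholds. The 18 genes without it had a median of -0.39, with 4 past the thresholds (Rps28, Rps19, Rps13 and Rps16). The range of both groups was wide, from -1.17 for Rps27 to -0.19 for Rps6 among genes with the TOP start. The search covered only the annotated start base, which in the Rps24 window lies inside a run of pyrimidines but is itself a T. The split therefore sorts genes by that base alone. It cannot show that the 18 genes lack a TOP start, since a start annotated a few bases off would be missed.

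The 29 genes held between 238 counts (Rps28 in KO replicate 3) and 6373 counts (Rps2 in WT replicate 2) in a library, of totals between 25351976 and 29111213. Libraries of either genotype carried a full set of muscle fiber transcripts, with 16 of 16 fiber markers tested and none past the DEG thresholds. Selenow, counted over all of its exons together, had TMM-scaled CPM values (the count of a gene relative to the scaled total of its library, and the unit of every level below) of 268, 245 and 219 in WT and 193, 212 and 210 in KO, without overlap. Its log2 fold change was -0.25 (SE 0.14, adjusted p = 0.604 from edgeR). Every SE here is a standard error derived from the fit, the absolute log2 fold change over the square root of the F statistic. The count of the whole gene does not by itself show the deletion of exon 4. The genotype of the libraries is therefore taken from their labels. WT replicate 1 had the highest value of the 6 libraries for all 29 genes.

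**Figure D1:**
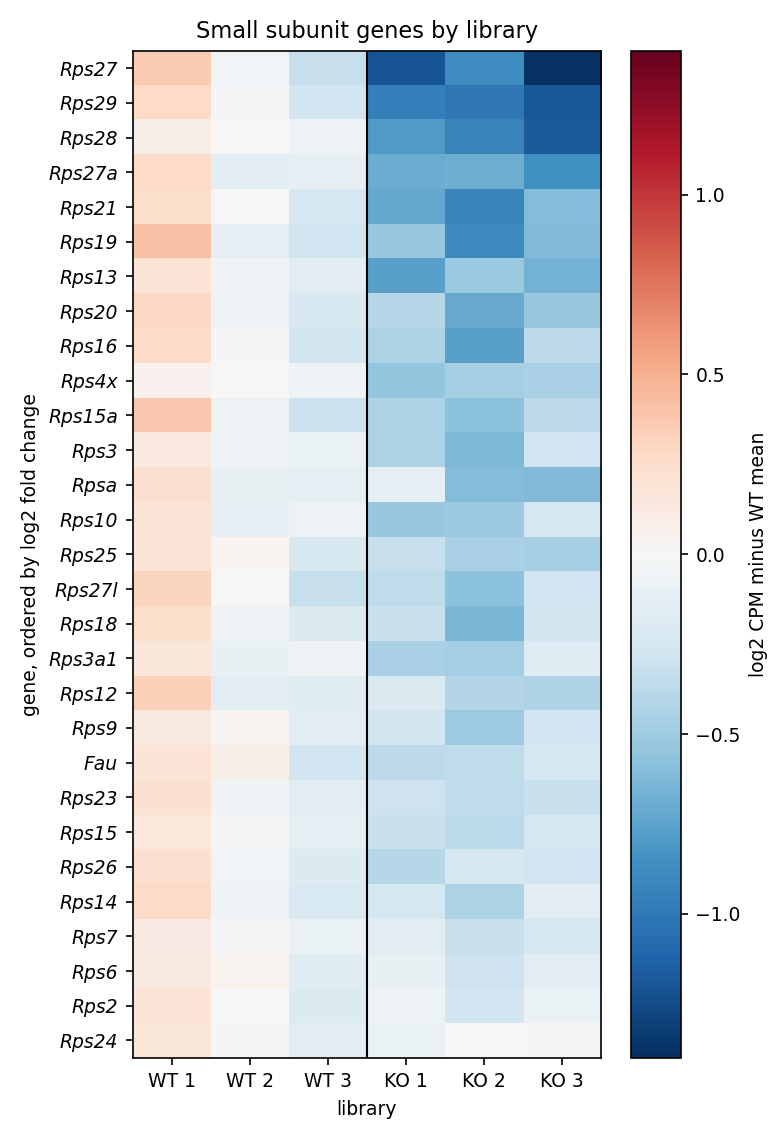
Heat map of the 29 small subunit genes (rows, ordered by fold change) in the 6 libraries (columns); color gives the log2 CPM minus the WT mean of the gene. WT replicate 1 is above the WT mean for all genes, and the KO libraries are below it for 28 or 29 of the 29 genes.

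The level of the whole set differed between the genotypes. As a share of all counts in the library, the 29 genes together took 0.233%, 0.225% and 0.222% in WT and 0.151%, 0.138% and 0.161% in KO. After TMM scaling their summed CPM was 2399, 2035 and 1860 in WT and 1691, 1540 and 1662 in KO. The groups did not overlap on either scale, with or without WT replicate 1, and the KO mean was 0.661 times the WT mean before scaling and 0.777 times after it. This gap between the scales came with TMM factors of 0.974 to 1.20 in WT and 0.893 to 0.968 in KO, which did not overlap either. Scaled to total counts alone, 25 of the 29 genes passed the DEG thresholds in the lower direction (against 11% of all genes) and in all 29 the groups did not overlap (against 24% of all genes with KO lower in that way), while the median over all genes was itself at -0.25 and that over the 29 genes at -0.66.

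Against the WT mean of each gene, the median over the 29 genes on the log2 scale was 0.21, -0.04 and -0.17 in the WT libraries, in the order of their numbers, and -0.40, -0.51 and -0.31 in the KO libraries. KO replicate 2 held the lowest value of the 6 libraries for 16 genes, KO replicate 3 for 7, KO replicate 1 for 5 and WT replicate 3 for 1. Without WT replicate 1 the median fold change over the genes was -0.29 and 6 genes passed the DEG thresholds. The share of all genes that passed is not given here for any fit with a library left out. Rps19, Rps20 and Rps16 were the genes lost. Of the genes not past the thresholds, the log2 fold change was closer to 0 by over 1.5 times without WT replicate 1 for Rps15a (-0.27), Rps27l (-0.25), Rps23 (-0.21), Rps26 (-0.18), Rps12 (-0.17), Rps14 (-0.15), Rps6 (-0.12) and Rps2 (-0.05). Without WT replicate 3, Rps2 was at -0.24 and Rps24 at -0.11, without KO replicate 2 Rps2 was at -0.09, and without KO replicate 1 Rps24 was at -0.01. Without KO replicate 2, Rps20 (-0.48) and Rps16 (-0.42) did not pass either. In the other direction, Rps15a passed without WT replicate 2, WT replicate 3 or KO replicate 3, Rps4x, Rps25 and Rps27l passed without WT replicate 3, Rpsa without KO replicate 1, and Rps3 and Rps10 without KO replicate 3.

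**Figure D2:**
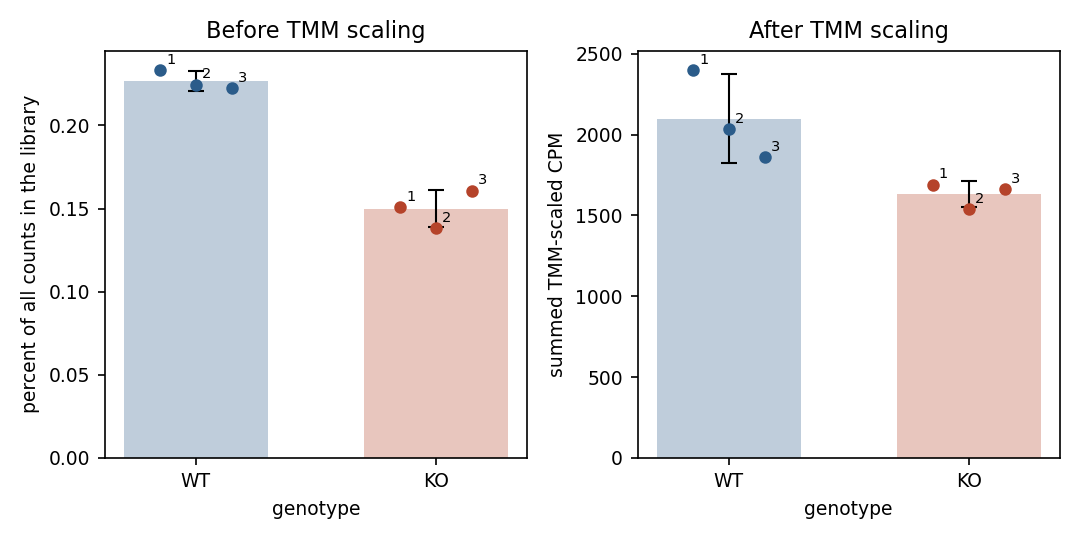
Summed level of the 29 genes in each library, as a percent of all counts (left) and as summed TMM-scaled CPM (right); bars are means, error bars SD (n = 3) and points libraries numbered by replicate. KO libraries lie below WT libraries on both scales, with a mean of 0.661 times WT on the left and 0.777 times on the right.

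4 of the 5 genes with the largest differences, Rps27, Rps29, Rps28 and Rps21, encode proteins under 100 residues, and the other one is Rps27a with 156 residues. Rps27 (chr3:90212522-90213651 in GRCm38) encodes the zinc-binding protein eS27 of the platform side. Its CPM was 43.1, 32.6 and 26.8 in WT and 14.5, 18.3 and 12.9 in KO. The highest KO library was below the lowest WT library, and the log2 fold change was -1.17 (SE 0.19, adjusted p = 0.163 from edgeR). Rps29 (chr12:69157722-69159186) encodes uS14, a zinc-binding protein of the head and, with 56 residues, the shortest of the set. Its CPM was 52.3, 42.8 and 35.9 in WT and 22.3, 21.6 and 18.9 in KO. The 3 KO libraries lay close together, well below the WT libraries, and the log2 fold change was -1.06 (SE 0.15, adjusted p = 0.0588). Rps28 (chr17:33819027-33824562) encodes eS28, which lies in the head near the exit of the mRNA channel. It had 21.4, 20.1 and 19.2 CPM in WT and 11.7, 10.5 and 8.90 CPM in KO. The WT libraries differed little here, and the log2 fold change was -0.97 (SE 0.14, adjusted p = 0.0588). Rps21 (chr2:180257377-180258445) encodes eS21, a body protein that sits beside the protein of Rpsa. Its CPM was 25.8, 21.7 and 18.4 in WT and 13.2, 11.4 and 14.3 in KO. The groups did not overlap, and the log2 fold change was -0.76 (SE 0.15, adjusted p = 0.274).

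Rps27l encodes a close paralog of eS27 whose gene is a known p53 target, and both proteins have 84 residues. Its CPM was 25.4, 20.6 and 16.3 in WT and 16.0, 13.7 and 16.9 in KO. The groups overlapped through WT replicate 3, and the log2 fold change was -0.42 (SE 0.16, adjusted p = 0.455), with -0.56 without WT replicate 3 and -0.25 without WT replicate 1. The ratio of Rps27 to Rps27l in a library was 1.69, 1.59 and 1.64 in WT and 0.902, 1.34 and 0.759 in KO. Every KO ratio was below every WT ratio, with a mean log2 difference of -0.76 (two-sided p = 0.1 by exact permutation, which is as low as 3 against 3 libraries can reach). This pair was chosen as paralogs by name, and reads shared between near-identical parts of both genes would bring their values closer.

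**Figure D3:**
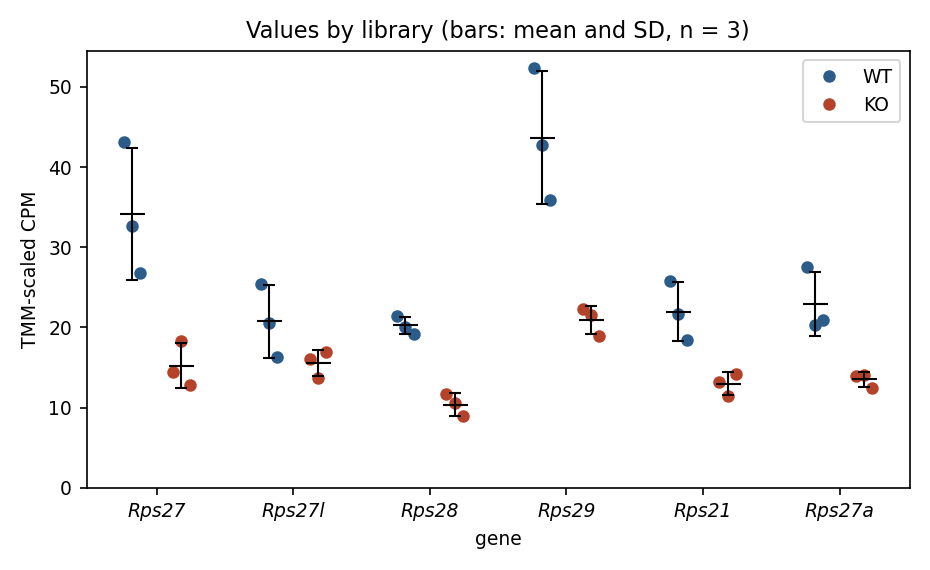
TMM-scaled CPM of 6 small subunit genes in each library (points), with mean and SD (n = 3) as black bars. For Rps27, Rps28, Rps29, Rps21 and Rps27a the KO points all lie below the WT points, whereas for Rps27l the groups overlap.

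Rps27a and Fau encode fusion proteins, in which ubiquitin (Rps27a) or a ubiquitin-like protein (Fau) is cut from the ribosomal protein after translation. Rps27a (chr11:29545846-29548109), a source of free ubiquitin and of eS31 in the head, had 27.5, 20.3 and 20.9 CPM in WT and 14.0, 14.1 and 12.5 CPM in KO. No KO library reached the WT range, and the log2 fold change was -0.76 (SE 0.15, adjusted p = 0.238 from edgeR). Pseudogenes named for Rps27a carried 131% of the counts of Rps27a itself, and with their counts added the log2 fold change was -0.56 and still past the DEG thresholds. Fau had 34.4, 31.8 and 24.9 CPM in WT and 23.4, 23.6 and 25.4 CPM in KO. The groups overlapped between KO replicate 3 and WT replicate 3, and the log2 fold change was -0.33 (SE 0.14, adjusted p = 0.476).

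Of the other genes past the thresholds, Rps19, Rps20 and Rps16 encode head proteins and Rps13 a body protein. Rps19 (chr7:24884371-24889806), the gene most often mutated in Diamond-Blackfan anemia, had 27.2, 18.8 and 16.8 CPM in WT and 14.1, 11.0 and 13.4 CPM in KO. WT replicate 1 stood far above the other WT libraries, and the log2 fold change of -0.70 (SE 0.18, adjusted p = 0.299) moved to -0.47 without it. Rps13 (chr7:116331505-116334195) had 38.7, 32.7 and 30.5 CPM in WT and 19.98, 23.6 and 21.4 CPM in KO. The groups stood apart, with a log2 fold change of -0.65 (SE 0.13, adjusted p = 0.274), and adding the counts of its named pseudogenes gave -0.51, just short of the fold threshold. Rps20 (chr4:3831334-3835665), which with Rps10 is known to be ubiquitinated when ribosomes stall, had 63.4, 49.4 and 44.5 CPM in WT and 39.4, 31.8 and 35.8 CPM in KO. Rps16 (chr7:28350652-28353155), whose protein uS9 reaches toward the tRNA in the decoding region, had 47.5, 38.9 and 33.1 CPM in WT and 29.04, 23.2 and 30.5 CPM in KO. For both genes the KO values were below all WT values by a small margin, and the log2 fold changes were -0.56 for Rps20 (SE 0.16, adjusted p = 0.301) and -0.53 for Rps16 (SE 0.16, adjusted p = 0.331). At the fold threshold, Rps20 and Rps16 were the members just inside it and Rps4x (-0.49) and Rps15a (-0.49) those just outside.

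The other 20 genes did not pass both thresholds. In 14 of them the unadjusted p was under 0.05 while the fold change was 0.7 or more, and in 6 the p was 0.05 or more (Rps26, Rps14, Rps7, Rps6, Rps2 and Rps24). Among the head proteins, Rps3 of the mRNA entry site had a log2 fold change of -0.45, Rps10 -0.43, Rps25, which certain viral RNAs need to recruit the ribosome, -0.42, Rps18 -0.41, Rps12 -0.36 and Rps15 -0.32. In the body and platform, Rps3a1 had -0.37, Rps9, a protein of the decoding region, -0.34, Rps23, which reaches into the decoding center, -0.33, Rps26, which lines the mRNA exit, -0.31, Rps14 -0.30 and Rps7 -0.24. All of these values but that of Rps14 came with non-overlapping groups, at adjusted p from 0.340 for Rps3 to 0.577 for Rps7 (edgeR).

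Rps4x, the X-linked copy of the eS4 gene, differed from its neighbors in spread. Its CPM was 97.6, 92.9 and 90.1 in WT and 64.3, 67.5 and 68.1 in KO. The libraries of each genotype lay closer together than for most of the genes, and the log2 fold change was -0.49 (SE 0.13, adjusted p = 0.299 from edgeR).

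Rpsa, also known as the laminin receptor, was among the most counted of the 29 genes. Its CPM was 251, 197 and 194 in WT and 195, 139 and 138 in KO. KO replicate 1 lay within the WT range, and the other KO libraries lay far below it, with a log2 fold change of -0.44 (SE 0.18, adjusted p = 0.455). With the counts of its 9 named pseudogenes added, the log2 fold change was -0.11. The largest counts among them were those of Rpsa-ps10, singled out after its values were seen, which had 202, 228 and 181 counts in WT and 83, 1749 and 1955 in KO. It was high in KO replicates 2 and 3, where Rpsa itself was lowest, and whether reads of Rpsa were assigned to it was not tested.

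Rps6 encodes the substrate of the S6 kinases downstream of mTORC1. Its CPM was 117, 110 and 94.6 in WT and 99.3, 87.6 and 95.7 in KO. The groups overlapped, and the log2 fold change was -0.19 (SE 0.14, adjusted p = 0.692). Rps2, a protein of the mRNA entry site, overlapped between the genotypes as well, with a log2 fold change of -0.15 (SE 0.15, adjusted p = 0.760). The smallest difference was that of Rps24, which is also mutated in Diamond-Blackfan anemia. Its CPM was 193, 169 and 156 in WT and 161, 173 and 169 in KO. The KO values lay within the WT range, and the log2 fold change was -0.04 (SE 0.14, adjusted p = 0.949), turning to 0.05 without WT replicate 1.

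**Figure D4:**
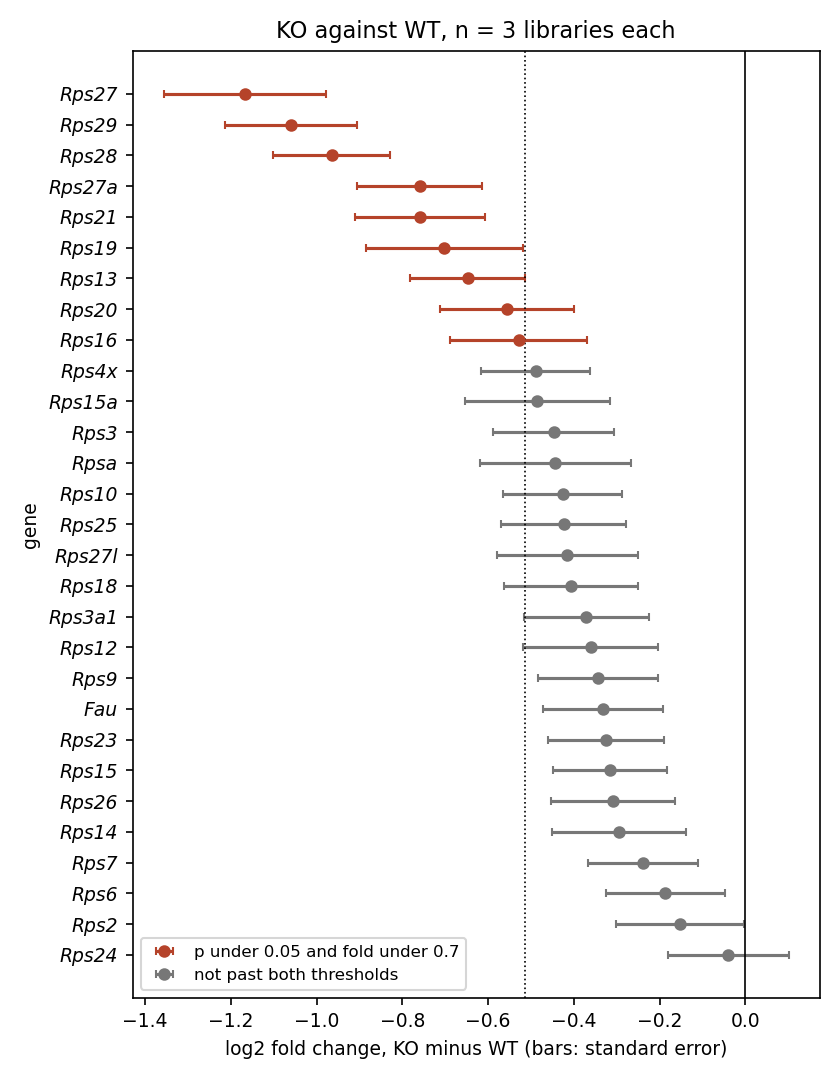
Log2 fold change of KO against WT (x axis) for each of the 29 genes (y axis), with the standard error derived from edgeR's F statistic as bars (n = 3 libraries each). The dotted line is the fold threshold of 0.7, the 9 genes past both thresholds are red, and no point lies above 0.

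By their place in the subunit, 6 of 12 head protein genes were lower past the DEG thresholds (median log2 fold change -0.49) and 3 of 17 body and platform protein genes (median -0.34). In all 12 head genes of the set the KO libraries were below the WT libraries, and in 10 of 17 body and platform genes. Rack1, on the head but outside the 29, had overlapping groups. By the length of the protein, the 5 genes under 100 residues (Rps29, Rps28, Rps21, Rps27 and Rps27l) had a median of -0.97 and 4 passed. The 18 genes from 100 to under 200 residues had a median of -0.38 with 5 past the thresholds, and the 6 genes of 200 residues and over had a median of -0.41 with none. Over the 29 genes, the Pearson r of log2 fold change with log2 protein length was 0.61 and Spearman's rho was 0.38. The genes share libraries, and the relation with the log2 WT level had a like Pearson r (0.63) and a larger Spearman's rho (0.62).

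Other genes of short coding length had medians below 0 in KO muscle too. Among protein-coding genes outside the ribosomal lists, the median log2 fold change was -0.17 for the 294 with under 300 coding bases, where 6.46% were lower past the thresholds. It was -0.12, -0.10 and -0.06 for those from 300 to under 450, from 450 to under 600 and from 600 to under 900 bases, and 0.06 for those with 1500 and over. In the same ranges the small subunit genes had medians of -0.97, -0.36, -0.41 and -0.41. An offset for coding length was also fitted in each library, a step chosen after the data were seen. With it the median of the 29 genes was -0.32, 7 genes passed, Rps16 and Rps20 did not, and Rps24 was at 0.09. The share of all genes that passed with this offset is not given here.

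**Figure D5:**
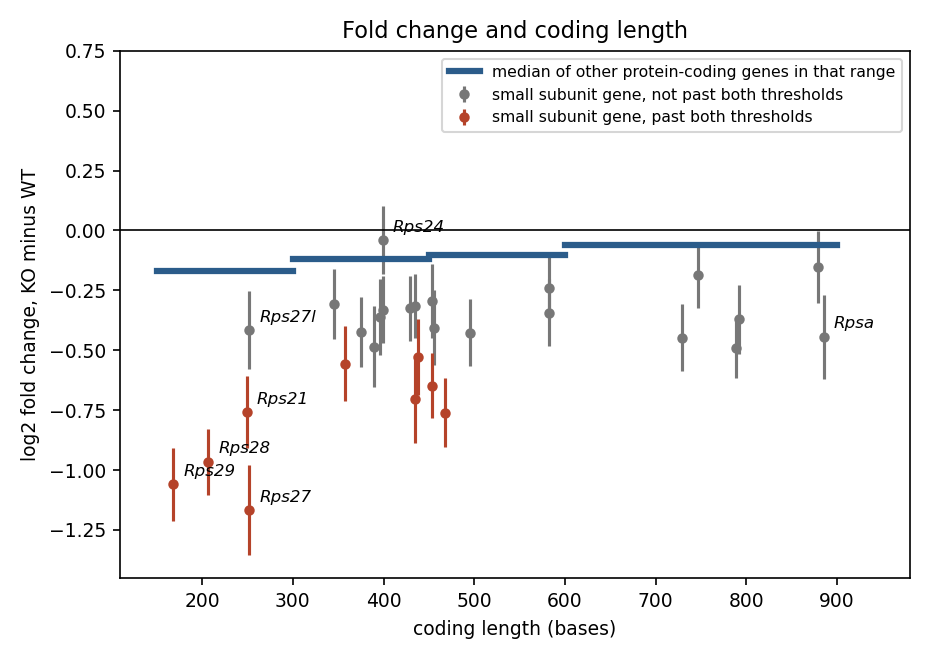
Log2 fold change with its standard error (y axis) against coding length in bases (x axis) for the 29 small subunit genes, red where past both DEG thresholds. Blue lines give the median of other protein-coding genes in each length range, from -0.17 under 300 bases to -0.06 from 600 to under 900 bases.

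Per kilobase of coding sequence, the level of the 29 genes spanned a wide range. In WT the highest was Rps24 with 433 CPM per kilobase, followed by Rps25 with 300.3 and Rps29 with 259.9, and the lowest was Rps19 with 48.1. In KO Rps24 was again highest with 421 and Rps25 second with 224. Rps29 was then at 125, the tenth in order after the third place in WT, and Rps27 moved from place 15 to place 23. The order of the genes was otherwise close in the 2 genotypes (Spearman's rho 0.94 over the 29 genes).

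Named pseudogenes were counted for 21 of the 29 genes. Their counts were largest beside the parent for Rps12 with 24 pseudogenes (166% of the parent's counts), Rps27a (131%), Rps13 (54.1%) and Rps10 (37.0%). Pseudogenes with a symbol that does not name the parent were not included. Genes whose pseudogenes held more than 10% of their counts had a median log2 fold change of -0.44 (n = 10), and those with 10% or less one of -0.42 (n = 19). Rps27 and Rps29 had 1 named pseudogene each, with under 0.1% of their counts, and Rps28 and Rps21 had none. With pseudogene counts added to every parent, 9 genes passed the thresholds, Rps15a among them in place of Rps13. The share of all genes that passed in that fit is not given here.

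Across 18 alternative fits, which changed the tool, scaling, filter, block, offset or libraries, Rps27, Rps29, Rps28, Rps27a and Rps21 passed the DEG thresholds every time. Rps19 and Rps13 passed in 17, Rps20 in 15 and Rps16 in 14 of them. The sign stayed negative in every fit for every gene except Rps24.

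Rack1, the signalling scaffold on the head of the subunit and outside the 29, had 104, 101 and 85.3 CPM in WT and 74.8, 77.4 and 91.2 CPM in KO. The groups overlapped, and the log2 fold change was -0.25 (SE 0.14, adjusted p = 0.606).

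Compared with the partner subunit, 8 of 49 large subunit genes were lower past the thresholds (16.3%) with a median log2 fold change of -0.31, and 47 of 49 were below 0. The summed CPM of the 29 small subunit genes over that of the large subunit genes was 0.605 ± 0.0175 (SD, n = 3) in WT against 0.572 ± 0.0342 (SD, n = 3) in KO, and the groups overlapped. The mitochondrial small subunit, whose proteins come from other genes, had a median of -0.14 over 30 genes, of which Mrps16 alone passed. Of 40 factors that assemble the small subunit, 2 were lower past the thresholds (Imp3, of the U3 snoRNP, and Fbl, the rRNA methyltransferase), and the median was -0.03. Initiation factors that act on the small subunit had a median of -0.12 with 0 of 21 past the thresholds in either direction, and mRNAs with known TOP starts outside the ribosome had a median of -0.07 with 0 of 20.

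Markers of other cell types were counted in the same libraries. Among erythroid markers 2 of 5 tested genes (Hbb-bt and Hbb-bs) were lower past the thresholds, and the summed CPM of the list was 174 to 293 in WT and 142 to 165 in KO, with Epb42 at 0, 2 and 1 counts in WT and at 0 in all KO libraries. Leukocyte markers had 4 of 22 lower (S100a9, H2-Ab1, Csf1r and Ighm) and 2 higher (Cd3e and Jchain), a summed CPM of 73.6 to 159 in WT and 55.1 to 76.4 in KO, and Ly6g at 0 in all libraries. Fibroblast markers had none of 12 past the thresholds (summed CPM 88.9 to 301 in WT and 77.8 to 164 in KO), endothelial markers none of 12 (101 to 163 and 154 to 176, all 12 with a log2 fold change above 0), satellite cell markers 1 of 9, Myod1, which was lower (28.5 to 36.0 and 26.0 to 28.2), Schwann cell markers none of 6 and adipocyte markers none of 5. The groups did not overlap for the summed erythroid and satellite cell markers and overlapped for the leukocyte, fibroblast and endothelial markers. The part of these cell types in the lower level of small subunit mRNAs was not tested. Mitochondrially encoded genes took 37.3%, 29.1% and 29.8% of the counts in WT and 40.3%, 38.2% and 35.4% in KO, with overlap of the groups. With these genes left out the same count of 9 small subunit genes passed, with a median of -0.42. The share of all genes that passed in that fit is not given here.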

How the data were processed

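Per the study's methods, paired-end reads were aligned by the authors using HISAT2, and featureCounts gave the number of reads of each gene. The authors deposited these raw counts, without normalization, for 3 WT and 3 KO libraries. The methods name GRCm38 and the submitters' processing notes GRCm39; of 52135 genes matched to GENCODE M21 (GRCm38), 1546 had the same start and end in the deposited table, so its positions were not used. Handling of strand and of multi-mapping reads is not given in the sources used here. The first WT column carries no number and was taken as replicate 1 by elimination.

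Genes were kept with filterByExpr (15623 genes), scaled by TMM and compared with edgeR's quasi-likelihood test with robust estimation (edgeR 4.0.16, R 4.3.3), with Benjamini-Hochberg adjustment over all tested genes. The DEG thresholds were those of the study. CPM values are TMM-scaled, and log2 values per library used a prior count of 1. DESeq2 1.42.0 and the other fits are alternatives. The steps were tested on simulated data. The study gives 3 mice per genotype, and the counts of replicates differed by more than sampling noise (chi-square over its degrees of freedom, 21.4 to 79.6). Total counts were 25351976 to 29111213.

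The members and lists were chosen with earlier results of these data known. All members were accounted for. Values per library were set to be given for members past the thresholds, for Rps27l, Rps6, Rpsa and Fau, and for the member with the smallest fold change; those of Rps4x were added after they were seen. Some genes of the lists are not reported here. The coding length is that of a GENCODE transcript, and TOP starts and windows came from RefSeq's promoters.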

Additional observations from a re-analysis of the deposited data

How the results depend on the processing

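The number of small subunit genes lower past the DEG thresholds stayed at 9 with DESeq2, its size factors, no filter, a minimum of 10 counts per library, robust estimation off, the gene length offset, the mitochondrial genes left out, TMM without ribosomal genes and pseudogene counts added. With the gene length offset Rps15a (-0.54) passed in place of Rps16 (-0.43), and with pseudogene counts Rps15a (-0.52) in place of Rps13 (-0.51). With total counts and no TMM it was 25 and the median -0.66, and with an adjusted p under 0.05 as the threshold in the fit reported above it was 0. That threshold was passed by 7 of the 29 genes with DESeq2 (of 45 in the table), 7 with total counts (of 55), 9 with no filter (of 363), 2 with the minimum of 10 counts (Rps28 and Rps29, of 4), 5 without KO replicate 2 (of 242), 1 without KO replicate 1 (of 16), 1 without WT replicate 3 (of 2) and 0 in the other fits. Leaving out each library gave 6 (without WT replicate 1) to 13 (without WT replicate 3) genes and medians from -0.29 to -0.50. In the lower direction, 3.06% of all genes passed with DESeq2, 3.15% with its size factors and 3.66% with no filter. The share was 2.55% with the minimum of 10 counts and 11% with total counts. For the other fits, those with a library left out among them, it is not given here, so counts such as 6 and 13 stand without it. Rps24 was the gene that reversed, at 0.0869 with the coding length offset and between -0.111 (without WT replicate 3) and 0.0475 (without WT replicate 1) when a library was left out. The cause of these changes was not tested. In no fit was a gene of the set higher past the thresholds.

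With the replicate number as a replicate block, 9 genes passed and the median was -0.42. Same-numbered libraries correlated at 0.0596, 0.0440 and -0.0736 in their deviations, so the numbers were not taken as pairs. Depth left at least 238 counts per gene and library. With 3 libraries per genotype, the log2 fold changes of Rps6 and Rps2 (-0.19 and -0.15) were close to their standard errors (0.14 and 0.15).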
